A study of Mus musculus with 15 samples.

Results

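Tuft cells are rare chemosensory cells of the intestinal epithelium, and 10 genes that mark them or carry out their work were followed across mouse small intestinal organoids, out of 43629 genes counted. The genes were chosen by name from what tuft cells are known for, with earlier results of these data known. They were Dclk1, Trpm5, Avil, Pou2f3, Gfi1b, Il25, Alox5, Alox5ap, Ptgs1 and Hpgds, and each was present in the count table. Organoids are crypt-derived cultures in which stem cells and their differentiated progeny grow together in a gel.

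RNA was sequenced from 15 organoid cultures of a mixed C57B6/129 background, and 13 libraries were placed in a group by their labels. WT comprised 4 libraries from APC flox/flox organoids, labelled 1, 2, 5 and 6, and 1 from a culture labelled Dox naive, which carried the doxycycline-inducible Cas9 but had not been given the drug. The medium of WT was ENR, which contains epidermal growth factor, Noggin and the Wnt-enhancing ligand RSPO1. Apc comprised 4 libraries of Apc delta/delta organoids, labelled 1, 2, 5 and 6, which lack the brake on the Wnt pathway. The 4 P-Rspo3 libraries were titled EN15d, EN4d, EN_M and EN_F and are named 15d, 4d, M and F here. The labels used here do not say whether 15d and 4d are times in culture, or whether these libraries share a culture. All 4 came from organoids with an inversion that places Rspo3 under the promoter of Ptprk. The inversion was made by Cas9 editing of whole cultures that were then selected without RSPO1, so a P-Rspo3 library need not be 1 clone. Both mutant groups grew in EN medium, without RSPO1. Genotype and medium therefore cannot be told apart in any comparison with WT, whereas Apc and P-Rspo3 shared a medium. Apc and P-Rspo3 came from different lines, so genotype and line cannot be told apart between them. In P-Rspo3 against WT the lines of the APC flox/flox libraries differed from those of P-Rspo3 too. The Dox naive library carried the inducible Cas9, but its labels do not say whether it shares a line with a P-Rspo3 library. The age and sex of the mice behind each library were not used.

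Total counts were 28902729 to 35528495 per grouped library. Rspo3 had 539 to 1079 counts in P-Rspo3, at most 1 in WT and 7 to 57 in Apc. Apc itself had 9265 to 10953 counts in the Apc libraries, above the 4046 to 6810 in WT and 4568 to 5908 in P-Rspo3 without overlap, and a count over the whole gene does not test the deletion. The 7 epithelial markers, Epcam among them, were detected in every group, with a summed level of 4657 to 6487 CPM (counts per gene scaled to the library's TMM size). The 2 further libraries, LIPO and NAIVE_F, were left unassigned, and their values are given apart. The title of NAIVE_F conflicts with its genotype field, P-Rspo3, and the title of LIPO names none of the groups. The smallest chi-square per gene between any 2 libraries was 20.2, so no library was a copy of another. Nothing in the labels says that libraries of a group came from separate animals, so p-values measure the spread between these libraries, which may be partly technical.

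Tuft cells sense metabolites and parasites in the gut lumen through a taste-type cascade that ends in the opening of the cation channel TRPM5. They answer by releasing the cytokine IL-25, which starts a type 2 immune response, and by making prostaglandins and leukotrienes from arachidonic acid. The transcription factor POU2F3 is needed for their formation, and in the mouse intestine the kinase DCLK1 is their most used marker.

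The sequence before the start sites of 5 genes that differed between groups is shown first, because Pou2f3 is a POU factor and this family is known for binding the octamer ATGCAAAT. The 250 bases before each RefSeq start site (GRCm38.p6) are given 5' to 3' on the strand of the gene, and capitals mark a match to the octamer or to CTTTGAA or CTTTGAT, which are 2 forms of the core bound by the TCF factors of the Wnt pathway, on either strand. The form CTTTGAT was added after the sequences had been seen.
Dclk1, first start, chr3:55242114-55242363, plus strand: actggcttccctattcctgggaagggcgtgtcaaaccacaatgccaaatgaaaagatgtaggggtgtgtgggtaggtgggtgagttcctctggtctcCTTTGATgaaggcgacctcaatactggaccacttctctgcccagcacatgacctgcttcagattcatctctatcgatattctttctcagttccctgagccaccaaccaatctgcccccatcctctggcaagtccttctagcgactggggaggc
Dclk1, second start, chr3:55461478-55461727, plus strand: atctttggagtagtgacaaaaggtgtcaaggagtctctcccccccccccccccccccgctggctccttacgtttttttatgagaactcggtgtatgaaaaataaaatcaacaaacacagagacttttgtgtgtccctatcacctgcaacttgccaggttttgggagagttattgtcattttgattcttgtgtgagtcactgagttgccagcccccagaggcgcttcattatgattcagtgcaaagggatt
Trpm5, chr7:143094643-143094892, minus strand: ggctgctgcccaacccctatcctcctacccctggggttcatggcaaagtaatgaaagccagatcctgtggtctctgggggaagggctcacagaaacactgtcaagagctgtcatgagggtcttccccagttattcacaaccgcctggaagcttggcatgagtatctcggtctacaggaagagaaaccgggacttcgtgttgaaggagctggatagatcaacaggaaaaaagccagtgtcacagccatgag
Gfi1b, chr2:28621983-28622232, minus strand: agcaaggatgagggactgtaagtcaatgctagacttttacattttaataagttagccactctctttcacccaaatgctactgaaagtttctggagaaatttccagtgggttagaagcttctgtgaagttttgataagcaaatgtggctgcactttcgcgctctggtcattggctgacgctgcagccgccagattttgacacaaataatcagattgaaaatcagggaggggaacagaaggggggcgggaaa
Ptgs1, chr2:36230176-36230425, plus strand: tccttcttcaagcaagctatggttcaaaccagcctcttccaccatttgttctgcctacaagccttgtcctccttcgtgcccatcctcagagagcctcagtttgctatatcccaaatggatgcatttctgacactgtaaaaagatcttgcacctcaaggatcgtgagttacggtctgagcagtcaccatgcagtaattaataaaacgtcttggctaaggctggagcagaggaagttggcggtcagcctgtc
Hpgds, chr6:65144731-65144980, minus strand: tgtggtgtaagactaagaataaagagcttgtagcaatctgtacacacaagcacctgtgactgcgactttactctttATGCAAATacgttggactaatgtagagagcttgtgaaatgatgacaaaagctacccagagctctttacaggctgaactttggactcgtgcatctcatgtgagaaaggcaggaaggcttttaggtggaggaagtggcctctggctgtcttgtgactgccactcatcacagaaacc
Of the 10 genes, 7 had an entry in the promoter table, with 8 start sites in all, since Dclk1 has 2. Of these, 2 held a match, with 1 octamer in Hpgds at 174 bases before its start and 1 CTTTGAT at 153 bases before the first start of Dclk1. The octamer was found in 1.6% of the 32851 promoters in the table, CTTTGAA in 4.46% and CTTTGAT in 3.21%. These matches are letters in a window and do not show binding. Pou2f3, Alox5ap and Il25 had no entry.

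In Apc organoids 4 of the 9 genes tested fell against WT and none rose, in edgeR's quasi-likelihood test with an adjusted p below 0.05 and a log2 fold change beyond 1 in either direction. The genes that fell were Dclk1, Alox5ap, Gfi1b and Trpm5, from 3.44-fold lower for Trpm5 to 26.2-fold lower for Dclk1. Genes were tested if their deposited FPKM reached 0.1 in as many libraries as the smaller group held. Dclk1 and Gfi1b met this filter through WT alone, the group where they were high, with FPKM of at most 0.0736 and 0.026 in Apc. The count of 0 higher rests on Ptgs1, which lay just under the fold threshold. Over all 16749 genes tested, 14.1% were called lower and 12.2% higher. In P-Rspo3 organoids none of the 9 genes tested was called in either direction, where 0.00625% of 15992 genes were called higher and 0% lower, so this comparison called almost no gene of any kind. At an unadjusted p under 0.05, 3 of the 9 were lower in P-Rspo3 (Gfi1b, Avil and Alox5ap) and 1 was higher (Hpgds), where 7.03% of all genes tested were lower and 6.47% higher by the same measure. DESeq2 and limma called none of the 9. Between Apc and P-Rspo3, both without RSPO1, 4 of 8 genes tested were lower in Apc and 1 was higher, against 13.3% and 13.4% of 16456 genes. There Dclk1 met the filter through P-Rspo3 alone. In bulk RNA of this kind, fewer tuft cells and less RNA per tuft cell cannot be told apart.

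**Figure D1:**
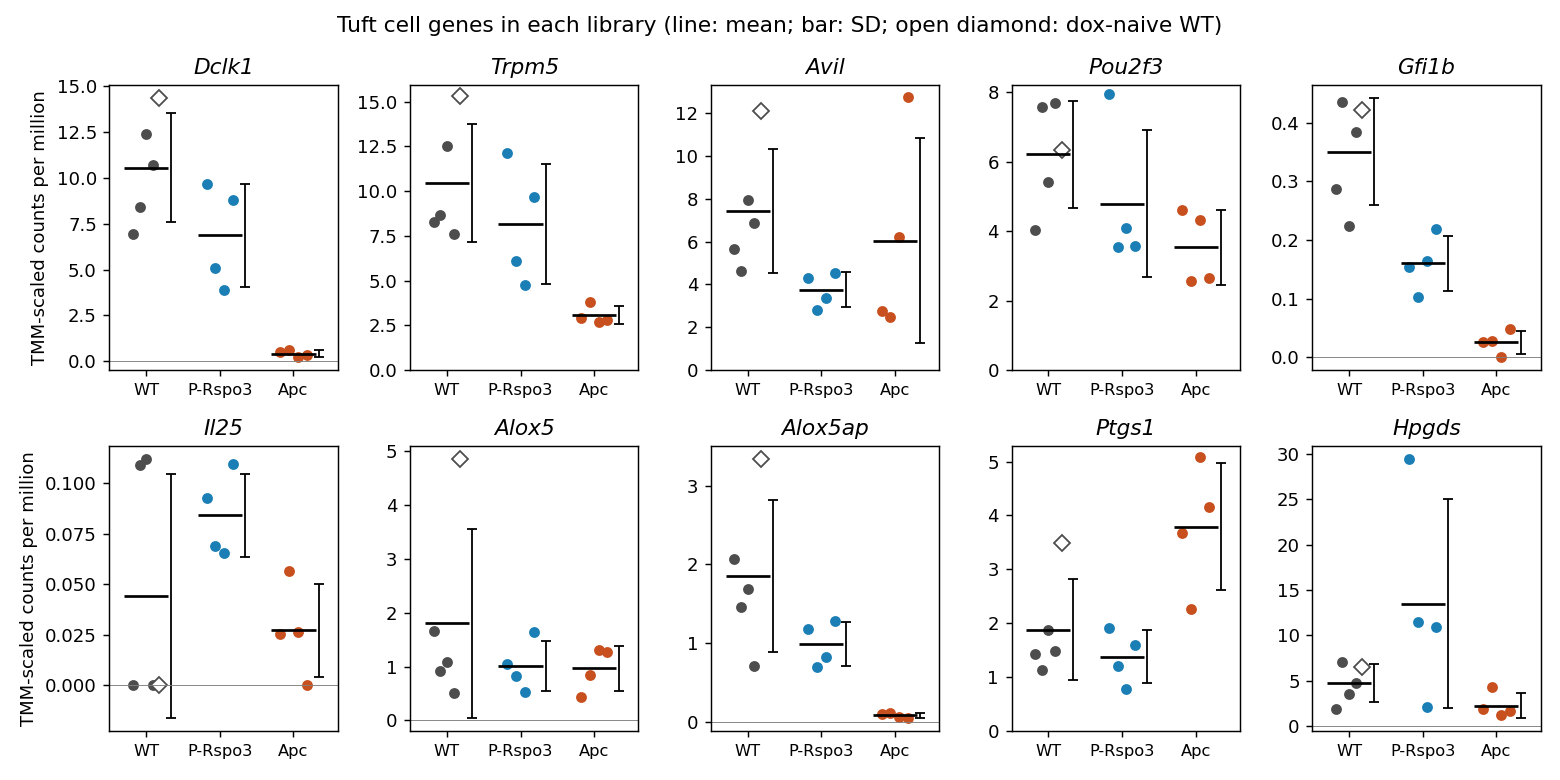
Level of each of the 10 tuft cell genes in TMM-scaled CPM (vertical axes, 1 scale per gene) in the WT (grey, n = 5), P-Rspo3 (blue, n = 4) and Apc (orange, n = 4) libraries; each point is a library, the line is the group mean and the bar 1 SD. The Apc points of Dclk1, Trpm5, Gfi1b and Alox5ap lie below every WT point, and the dox-naive WT library (open diamond) is the highest WT library for 6 of the genes.

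Levels below are in CPM, scaled by TMM, which corrects for library composition, and are given in the order WT 1, 2, 5, 6 and naive, then P-Rspo3 15d, 4d, M and F, then Apc 1, 2, 5 and 6.

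Dclk1 encodes a microtubule-associated kinase. It had 6.95, 8.42, 12.4, 10.7 and 14.4 in WT, then 9.67, 5.07, 3.89 and 8.82 in P-Rspo3, and 0.507, 0.594, 0.208 and 0.314 in Apc. The Apc libraries lay below all others with no overlap, while the P-Rspo3 libraries overlapped with WT, with M and 4d below its range. In Apc, Dclk1 fell by a log2 fold change of -4.71 (SE 0.35) against WT (edgeR, adjusted p = 1.1e-06) and of -4.07 (SE 0.42) against P-Rspo3 (edgeR, adjusted p = 3.8e-05). In P-Rspo3 against WT it was -0.62 (SE 0.30), which did not pass (edgeR, adjusted p = 0.401). Dclk1 spans chr3:55242364-55539068 on the plus strand, and its count pools transcripts from both start sites printed above. Its exons share bases with the gene models Gm21954 and Gm42609 on the other strand.

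Trpm5 encodes the calcium-activated cation channel at the end of the taste-type cascade. It had 8.26, 8.64, 12.5, 7.62 and 15.3 in WT, then 12.1, 6.11, 4.77 and 9.70 in P-Rspo3, and 2.91, 3.82, 2.71 and 2.82 in Apc. Every Apc library lay below every library of the other groups, and P-Rspo3 overlapped with WT. Its log2 fold change was -1.78 (SE 0.24) in Apc against WT (edgeR, adjusted p = 8.6e-05), -1.41 (SE 0.29) in Apc against P-Rspo3 (edgeR, adjusted p = 0.00255) and -0.35 (SE 0.30) in P-Rspo3 against WT (edgeR, adjusted p = 0.645). The deposited FPKM of Trpm5 did not show this fall. It was 2.39 ± 0.77 (SD, n = 5) in WT and 2.04 ± 0.339 (SD, n = 4) in Apc, and the Apc level was 0.854 times the WT level by FPKM and 0.293 times by counts. Trpm5 lies at chr7:143069153-143094642 on the minus strand and shares exon bases with Tssc4 on the other strand. The part of this overlap in the difference between the scales was not tested.

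Avil encodes advillin, an actin-bundling protein of the villin family that is found in the apical tuft. It had 5.67, 4.65, 7.93, 6.85 and 12.1 in WT, then 4.29, 2.80, 3.37 and 4.56 in P-Rspo3, and 2.79, 2.46, 6.20 and 12.7 in Apc. The Apc libraries were spread over the whole range, with 1 and 2 low and 6 the highest of all 13, and the log2 fold change against WT was -0.31 (SE 0.47; edgeR, adjusted p = 0.603). Without Apc library 6 it was -0.97 (edgeR, adjusted p = 0.0593), and it was -0.05 without Apc library 2, -0.07 without Apc library 1 and -0.07 without the dox-naive library. The 4 P-Rspo3 libraries lay just below the WT range, with 4.56 as their highest and 4.65 as the lowest of WT. The log2 fold change there was -0.98 (SE 0.28), with an unadjusted p of 0.00546 that did not pass adjustment (edgeR, adjusted p = 0.183). Avil shares exon bases with Tsfm on the other strand.

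Pou2f3 encodes the transcription factor on which tuft cells depend. It had 4.05, 7.59, 5.42, 7.71 and 6.34 in WT, then 7.94, 3.56, 4.09 and 3.57 in P-Rspo3, and 4.61, 2.58, 4.32 and 2.65 in Apc. All 3 groups overlapped, and P-Rspo3 15d was the highest of the 13 libraries while the other P-Rspo3 libraries lay near or below the bottom of the WT range. The log2 fold change in Apc against WT was -0.82 (SE 0.25), with an adjusted p of 0.0158 in edgeR but a size short of the fold threshold, so it was not called. In Apc against P-Rspo3 it was -0.43 (SE 0.32; edgeR, adjusted p = 0.283), and in P-Rspo3 against WT -0.37 (SE 0.28; edgeR, adjusted p = 0.603). The mean CPM of Pou2f3 in Apc was 0.569 times that of WT, beside 0.038 times for Dclk1.

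Gfi1b encodes a zinc-finger repressor that is also known from megakaryocytes and red cell precursors. It was counted rarely, with 9, 12, 6, 13 and 12 reads in WT, 5, 3, 5 and 6 in P-Rspo3, and 1, 1, 0 and 2 in Apc. In CPM the groups formed 3 steps without overlap, although the lowest WT library had 0.224 and the highest P-Rspo3 library 0.219. By FPKM WT and P-Rspo3 overlapped, with P-Rspo3 15d and F above the 0.125 to 0.198 of WT libraries 1, 5, 6 and naive. The mean of WT was 2.19 times that of P-Rspo3 by CPM and 1.12 times by FPKM. Pooled over libraries, WT exceeded Apc by a ratio of 11.2, with a 95% counting interval of 4.13 to 42.7, and P-Rspo3 exceeded Apc by 5.16 (1.72 to 20.9). These intervals cover counting error only. The fitted log2 fold change in Apc against WT was -3.60 (SE 0.49; edgeR, adjusted p = 9.7e-05), a size that depends on the prior count. In P-Rspo3 against WT it was -1.12 (SE 0.33; edgeR, adjusted p = 0.189). Among the Apc and P-Rspo3 libraries, the FPKM of Gfi1b reached 0.1 only in P-Rspo3 15d (0.323) and F (0.331). These were too few libraries for the filter, so Gfi1b was not tested between Apc and P-Rspo3.

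Il25 encodes the cytokine by which tuft cells alert innate lymphoid cells. It had 0, 3, 3, 0 and 0 reads in WT, 3, 2, 2 and 3 in P-Rspo3 and 1, 2, 1 and 0 in Apc. No library had more than 3 reads, so its expression was not detectable at this depth and no fold change was computed. A count of 0 allows up to 3 reads.

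The remaining 4 genes make lipid mediators. Alox5ap encodes FLAP, the membrane protein that hands arachidonic acid to 5-lipoxygenase. It had 2.07, 1.45, 1.68, 0.711 and 3.35 in WT, then 1.17, 0.690, 0.818 and 1.28 in P-Rspo3, and 0.101, 0.113, 0.0521 and 0.0483 in Apc. The Apc libraries, with 2 to 4 reads each, lay below all others in CPM, and P-Rspo3 overlapped with the low end of WT. Its log2 fold change was -4.52 (SE 0.53) in Apc against WT (edgeR, adjusted p = 2.9e-05), -3.61 (SE 0.37) in Apc against P-Rspo3 (edgeR, adjusted p = 3.6e-05) and -0.90 (SE 0.40) in P-Rspo3 against WT (edgeR, adjusted p = 0.365). Alox5ap shares exon bases with the gene model Gm19719 on the other strand. FPKM of Alox5ap did not follow its counts, and the part of the overlap in this was not tested. WT library 6 had 24 reads and an FPKM of 17.3, and WT library 1 had 65 reads and an FPKM of 4.04. Apc library 5 had 2 reads and an FPKM of 8.35, so by FPKM the Apc libraries did not lie below all others. The mean of WT was 23.5 times that of Apc by CPM and 9.18 times by FPKM.

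Alox5 encodes 5-lipoxygenase itself, the first enzyme of leukotriene synthesis. It had 1.66, 0.908, 1.08, 0.504 and 4.86 in WT, then 1.05, 0.828, 0.523 and 1.64 in P-Rspo3, and 0.431, 0.849, 1.30 and 1.28 in Apc. Apart from the dox-naive library, which stood far above the rest, the 3 groups covered the same range. The log2 fold change was -0.91 (SE 0.62) in Apc against WT (edgeR, adjusted p = 0.231) and -0.84 (SE 0.62) in P-Rspo3 against WT (edgeR, adjusted p = 0.596), and without the dox-naive library these were -0.12 and -0.04. Alox5 had 17 to 53 reads per Apc library, where its partner Alox5ap had 2 to 4.

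Ptgs1 encodes COX-1, the constitutive cyclooxygenase that starts prostaglandin synthesis. It had 1.43, 1.13, 1.87, 1.48 and 3.49 in WT, then 1.92, 1.21, 0.785 and 1.60 in P-Rspo3, and 3.67, 2.26, 5.08 and 4.15 in Apc. All Apc libraries lay above all P-Rspo3 libraries and above the 4 APC flox/flox WT libraries, and the dox-naive library at 3.49 lay within the Apc range. Ptgs1 rose with a log2 fold change of 1.46 (SE 0.33) in Apc against P-Rspo3 (edgeR, adjusted p = 0.00418). Against WT it was 0.9999 (SE 0.34), with an adjusted p of 0.0276 in edgeR and a size just under the fold threshold. Without the dox-naive library it was 1.35 (edgeR, adjusted p = 0.0022), and it passed at 1.02 without Apc library 1 and at 1.18 without Apc library 2. Of 22 alternatives, 9 called it higher against WT. Ptgs1 shares exon bases with the gene model Gm43621 on the other strand. In P-Rspo3 against WT the log2 fold change was -0.45 (SE 0.37; edgeR, adjusted p = 0.638).

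Hpgds encodes the haematopoietic-type prostaglandin D synthase. It had 1.88, 7.08, 3.48, 4.74 and 6.52 in WT, then 29.5, 11.5, 2.13 and 10.9 in P-Rspo3, and 1.82, 4.27, 1.25 and 1.64 in Apc. P-Rspo3 15d, 4d and F were the highest libraries of the series for this gene, and P-Rspo3 M was among the low WT and Apc libraries. The log2 fold change in P-Rspo3 against WT was 1.51 (SE 0.60), with an unadjusted p of 0.0291 that did not pass adjustment (edgeR, adjusted p = 0.308), and it was 0.80 without library 15d. Hpgds was lower in Apc than in P-Rspo3, with a log2 fold change of -2.58 (SE 0.70; edgeR, adjusted p = 0.0108), although the groups overlapped through library M, and the value was -1.87 without library 15d. In Apc against WT it was -1.09 (SE 0.44; edgeR, adjusted p = 0.056), which was called at -1.29 without WT library 1 and at -1.60 without Apc library 2. Hpgds was the only one of the 9 genes tested whose fitted value was above 0 in P-Rspo3 against WT.

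**Figure D2:**
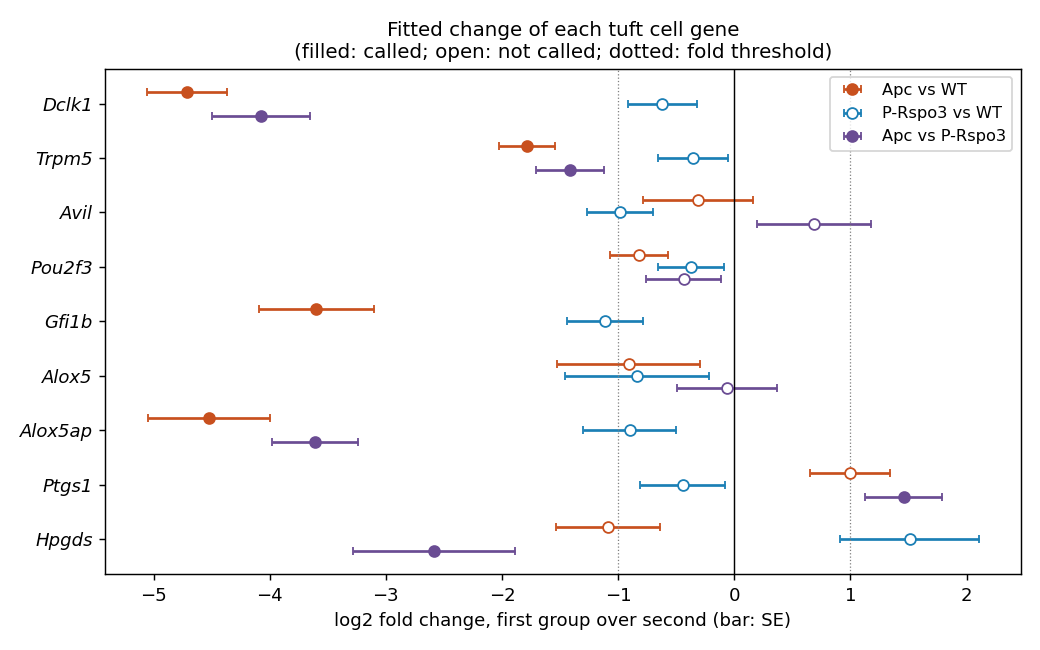
Fitted log2 fold change (horizontal axis, bars 1 SE) of the 9 tuft cell genes tested in Apc against WT (orange), P-Rspo3 against WT (blue) and Apc against P-Rspo3 (purple); filled points passed the test and the dotted lines mark the fold threshold. Dclk1, Trpm5, Gfi1b and Alox5ap are filled in Apc against WT, with Dclk1 at -4.71, and no point is filled in P-Rspo3 against WT.

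The genes also differed in level within a group. Per kilobase of exon, the order in WT ran from Avil, with 2.19 ± 0.85 CPM per kilobase (SD, n = 5), through Pou2f3 (2.01 ± 0.498), Trpm5 (1.63 ± 0.517) and Alox5ap (1.31 ± 0.684) to Gfi1b (0.192 ± 0.0501) and Il25. Neighbours in the upper part of this order lay within 1 SD of each other. In Apc, Avil (1.78 ± 1.40; SD, n = 4) and Pou2f3 (1.15 ± 0.348) stayed at the head and Ptgs1 came next with 0.976 ± 0.302, whereas Dclk1 stood at 0.0265 ± 0.0115 and Alox5ap at 0.0554 ± 0.0235. In P-Rspo3 the order began with Hpgds (2.10 ± 1.79; SD, n = 4), whose SD was almost as large as its mean.

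Over the 9 genes tested, the median log2 fold change was -1.09 in Apc against WT, where the median of all genes tested was 0.0006. In P-Rspo3 against WT it was -0.62, with 8 of 9 values below 0, where the median of all genes was 0.0041. Both comparisons use the same WT libraries, so the values share the error of WT.

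**Figure D3:**
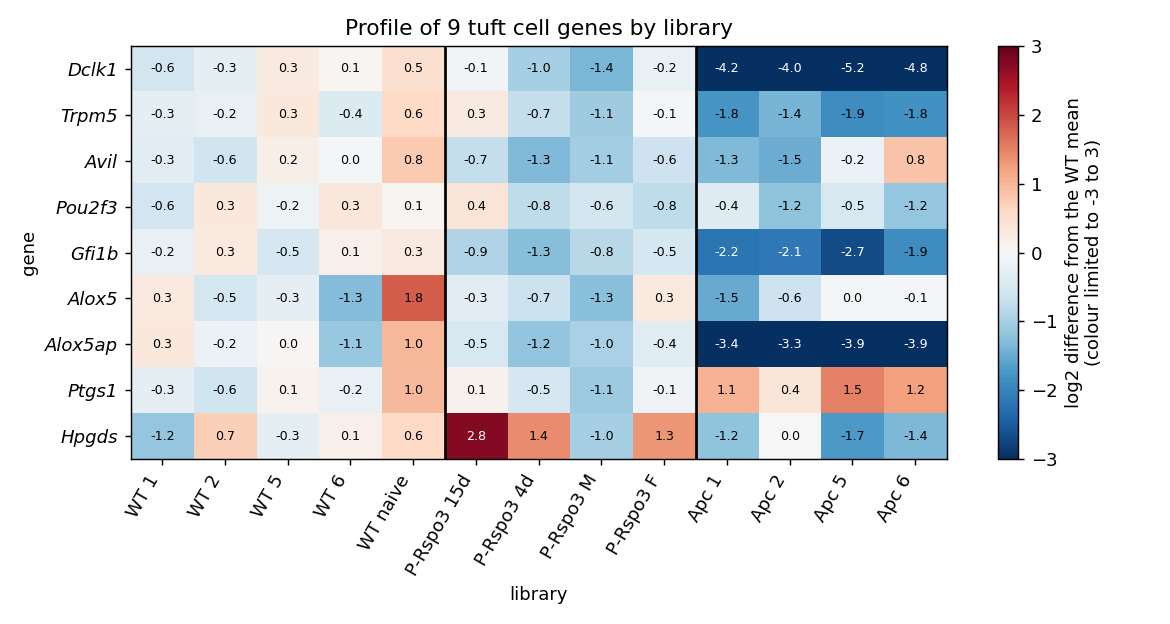
Log2 difference of each library from the WT mean (colour and printed value; computed with a small prior count that shrinks low counts) for 9 tuft cell genes (rows) in the 13 grouped libraries (columns; black lines separate WT, P-Rspo3 and Apc). The Apc columns are darkest blue for Dclk1 and Alox5ap, Ptgs1 is above 0 in each Apc column, and Hpgds is above 0 in P-Rspo3 15d, 4d and F.

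Libraries of the same group also differed from each other. Of the 9 WT and P-Rspo3 libraries, dox-naive WT was the highest for 6 of the 9 genes, namely Dclk1, Trpm5, Avil, Alox5, Alox5ap and Ptgs1. P-Rspo3 15d was the highest for Pou2f3 and Hpgds, and WT 2 for Gfi1b. P-Rspo3 4d was the lowest for 4 genes and P-Rspo3 M for 3. The median difference from the WT mean over the 9 genes was 0.60 on the log2 scale in the dox-naive library, -0.76 in P-Rspo3 4d and -1.05 in P-Rspo3 M, but -0.08 in P-Rspo3 15d and -0.21 in P-Rspo3 F. In the Apc libraries it was -1.35 to -1.73, below every P-Rspo3 library. Without the dox-naive library, again none of the genes was called in P-Rspo3 against WT, although 166 genes of all kinds were then called higher and 100 lower. The log2 fold changes of Trpm5 and Ptgs1 were then -0.17 and -0.10.

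Several of these genes are also used by blood cells, so 16 markers of leukocytes, mast cells and megakaryocytes were read beside them. Of these, 10 had at most 3 reads in every library of each group, including the T cell genes Cd3e and Cd3g, the B cell gene Cd79a, the mast cell genes Cpa3, Mcpt4 and Fcer1a, and the platelet genes Pf4 and Ppbp. The summed level of the 16 markers was 37.5 to 49.7 CPM in WT, 31.6 to 58.0 in P-Rspo3 and 24.7 to 63.6 in Apc, with Kit alone, a gene that epithelial cells use too, at 18.1 to 54.8. The leukocyte gene Ptprc had at most 24 reads in a grouped library, and that library was the dox-naive one. Csf1r, the receptor of macrophages, had 290 reads in the dox-naive library and 285 in P-Rspo3 F. It had 41 to 71 in the remaining WT libraries, 24, 117 and 25 in P-Rspo3 15d, 4d and M, and 1 to 20 in Apc. Csf1r was therefore high in the library where Alox5 and Alox5ap were highest, and its part in those values was not tested. The myeloid markers Itgam, Cd68 and Adgre1 were not high in that library. They had 173, 30 and 0 reads there, beside 200 to 335, 22 to 40 and 0 to 1 in the remaining WT libraries. Of the 16 markers 5 were tested in Apc against WT, and 4 of these were called, where 14.1% of all genes tested were called lower and 12.2% higher. Lower were Csf1r at -3.92 on the log2 scale (SE 0.85), the integrin gene of myeloid cells Itgam at -2.54 (SE 0.29) and the megakaryocyte integrin gene Itga2b at -1.93 (SE 0.30), with adjusted p of 0.0022, 2.7e-05 and 0.00022 in edgeR. The macrophage gene Cd68 was higher at 2.55 (SE 0.31; edgeR, adjusted p = 4.1e-05), and Kit was not called. These markers moved in the same comparison as the tuft cell genes, and their part in it was not tested. None of 5 tested was called by edgeR in P-Rspo3 against WT, with 0 at an unadjusted p under 0.05.

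The other genes of the tuft cell programme were followed in 5 lists with 59 genes in all. In Apc against WT, 24 of the 44 tested were called lower and 6 higher, beside the 14.1% and 12.2% of all genes given above. Some of these genes, such as Ffar3 and Plcb2, met the filter through WT alone, with FPKM of at most 0.0321 and 0.0845 in Apc. In P-Rspo3 against WT edgeR called none of the 44, with 11 lower and 0 higher at an unadjusted p under 0.05, beside 7.03% and 6.47% of all genes tested, and DESeq2 without a prior called 1, Ltc4s. In Apc against P-Rspo3, 20 of 40 were called lower and 8 higher, beside 13.3% and 13.4% of all genes tested.

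The haematopoietic-type signalling and surface genes had the lowest median. Of 16 tested, 12 were lower in Apc than in WT and 1 was higher, with a median log2 fold change of -3.40. Rac2, a small GTPase of blood cells, and Ly6g6f, a surface protein, each had 1 read in all Apc libraries together, beside 158 and 81 in WT. Siglecf, a sialic acid-binding receptor, had 238 reads in WT and 6 in Apc, and the adaptor gene Sh2d7 had a log2 fold change of -4.82 (SE 0.35; edgeR, adjusted p = 1e-06). The gene called higher was Krt23, a keratin, at 1.84 (SE 0.17; edgeR, adjusted p = 4.6e-06). Cd24a rose as well, at 0.84 (SE 0.14; edgeR, adjusted p = 0.00037), short of the fold threshold, with every Apc library above every WT library. Against P-Rspo3 Cd24a was called higher in Apc, at 1.07 (SE 0.16; edgeR, adjusted p = 0.00041).

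Of the taste-type signal transduction genes, 3 of 7 tested fell in Apc against WT and none rose. Plcb2, the phospholipase of the taste cascade, changed by -3.62 on the log2 scale (SE 0.40; edgeR, adjusted p = 2.1e-05), and Rgs13, a regulator of G-protein signalling, by -3.51 (SE 0.40; edgeR, adjusted p = 2.5e-05). Ffar3, a receptor of short-chain fatty acids, had 77 reads in WT and 4 in Apc, a pooled ratio of 16.6 with a counting interval of 6.23 to 62.5. The taste receptor subunit gene Tas1r3 was at -0.86 (SE 0.19; edgeR, adjusted p = 0.00275), short of the fold threshold, and Itpr3, the calcium release channel, was not called at -0.04 (SE 0.11; edgeR, adjusted p = 0.763). The G-protein genes Gnat3 and Gnb3 and the succinate receptor gene Sucnr1 did not reach the filter.

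Of the transcriptional regulators of tuft and other secretory cells, 4 of 8 tested fell in Apc and 3 rose. Spib, an Ets factor, changed by -4.00 on the log2 scale (SE 0.29; edgeR, adjusted p = 8.7e-07), the homeobox gene Hmx2 by -2.21 (SE 0.61; edgeR, adjusted p = 0.00939), and Gfi1, the relative of Gfi1b that acts in goblet and Paneth cells, by -2.08 (SE 0.24; edgeR, adjusted p = 2.5e-05). Hmx2 was counted rarely, with 4 to 10 reads per WT library and 0 to 4 per Apc library. Atoh1, which directs cells to secretory fates, fell as well, at -1.44 (SE 0.33; edgeR, adjusted p = 0.00305). Runx1, a factor best known from blood, rose 5.29-fold (edgeR, adjusted p = 1.8e-06), and so did Sox4, a factor linked to tuft cell formation, with a log2 fold change of 1.75 (SE 0.21; edgeR, adjusted p = 3.9e-05), and Ascl2, a stem cell factor, with 1.54 (SE 0.17; edgeR, adjusted p = 2e-05).

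Of the receptors of the type 2 circuit, 2 of 4 tested fell in Apc. Il17rb, a subunit of the IL-25 receptor, changed by -2.52 on the log2 scale (SE 0.32; edgeR, adjusted p = 5.1e-05) and Il13ra1, a subunit of the IL-13 receptor, by -1.40 (SE 0.16; edgeR, adjusted p = 2.5e-05). The log2 fold changes of Il4ra at -0.13 (SE 0.18) and Il17ra at -0.36 (SE 0.15), the partner subunits, were not called (edgeR, adjusted p = 0.571 and 0.0511).

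The eicosanoid genes outside the 10 split in both directions, with 3 of 9 tested lower in Apc than in WT and 2 higher. Ptges, the inducible prostaglandin E synthase, had 3 to 7 reads per WT library and 24 to 407 per Apc library, a log2 fold change of 4.68 (SE 0.74; edgeR, adjusted p = 0.00027). Ptgds, the lipocalin-type prostaglandin D synthase, had 11 to 107 reads in WT and 374 to 859 in Apc (log2 fold change 3.66, SE 0.56; edgeR, adjusted p = 0.0002). The thromboxane synthase gene Tbxas1 was at -1.68 (SE 0.43), the leukotriene C4 synthase gene Ltc4s at -1.47 (SE 0.28) and Ptges2 at -1.08 (SE 0.10), and all 3 were called lower. The cyclooxygenase gene Ptgs2 was not tested. It had 154 reads in Apc, of which 1 library held 123, and 4 in WT, with overlapping libraries.

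**Figure D4:**
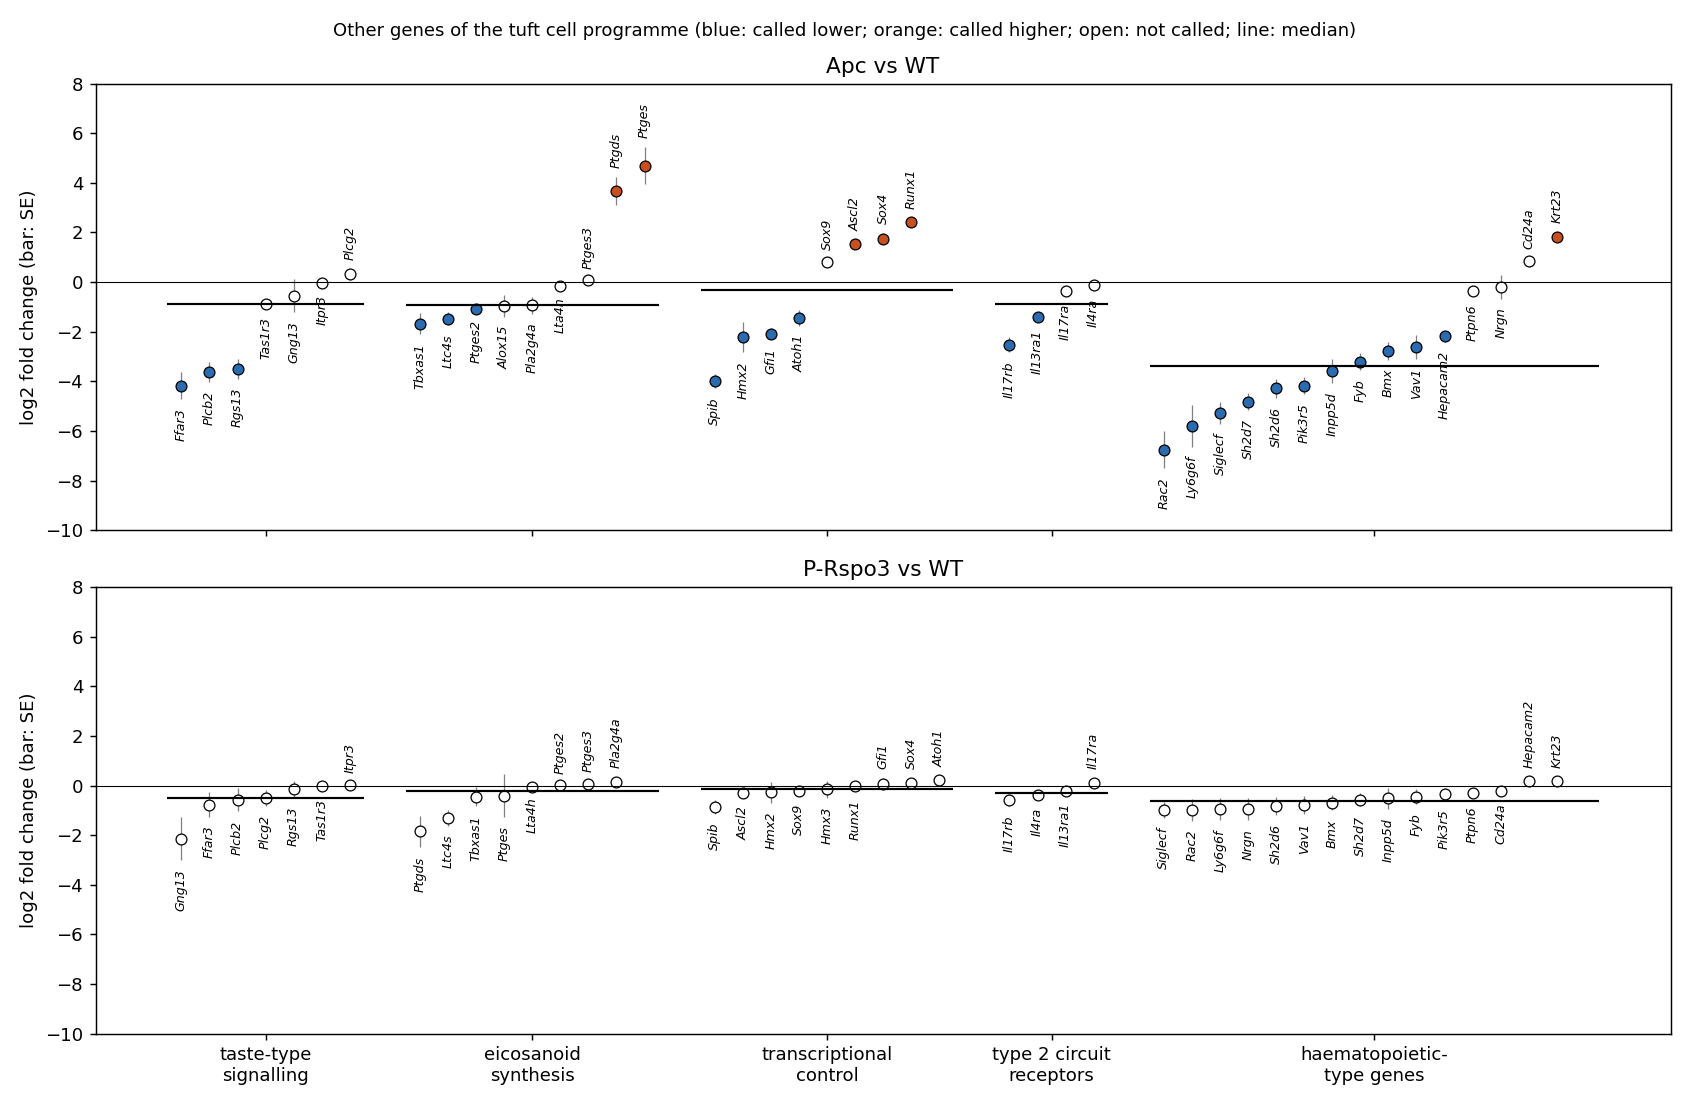
Fitted log2 fold change (vertical axis, bars 1 SE) of the tested genes, except 1, in 5 lists of the tuft cell programme, in Apc against WT (top) and P-Rspo3 against WT (bottom); blue points were called lower, orange points higher and open points not called, and the line is the median of all tested genes of a list, the 1 not drawn included. In the upper panel 23 of 43 points are blue and 6 orange, and in the lower panel none is coloured.

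Most markers of the other secretory and absorptive lineages were lower in Apc too. The goblet and enterocyte lists each had 5 of 5 genes called lower against WT, with medians of -3.59 and -9.91 on the log2 scale, and 4 of 5 Paneth and 3 of 5 enteroendocrine genes were called lower. Over all genes tested, 14.1% were called lower and 12.2% higher. The fifth Paneth gene, the matrix metalloproteinase gene Mmp7, was called higher, at 1.74 on the log2 scale (SE 0.26; edgeR, adjusted p = 0.00018). In P-Rspo3 against WT edgeR called none of these 20 genes, with 1 higher and 2 lower at an unadjusted p under 0.05, which is near the share of all genes tested, 13.5% in either direction.

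Genes whose levels followed the tuft cell genes most closely were sought over the 9 WT and P-Rspo3 libraries, as a description. The mean log2 level of the 9 genes correlated best, among 15726 other genes, with Fyb (Pearson's r = 0.945), Inpp5d (0.941), Cfap52 (0.930), Sh2d7 (0.930) and Smpx (0.925). Fyb, Inpp5d and Sh2d7 belong to the haematopoietic-type list above. Of the 44 genes of the 5 lists that were ranked, 15 were among the 100 highest of the 15726 genes. All points share 9 libraries and their scaling, and the dox-naive library lies at the top of the mean.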

How the data were processed

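RNA sequencing of 15 organoid cultures was used, 5 WT, 4 Apc and 4 P-Rspo3, with 2 unassigned. Per the submitters' processing notes, reads were aligned to GRCm38 with STAR. The authors deposited whole-number counts per gene from HTSeq 0.6.0, not normalized, and FPKM from Cufflinks 2.2.1. The annotation release and strand setting are not given in the sources used here, so reads in exons that genes share are uncertain. The members and gene lists were chosen with earlier results of these data known. Of the 43629 genes, 42462 were paired with a symbol.

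Counts were fitted in edgeR 4.0.16 (R 4.3.3; TMM, glmQLFit with legacy=TRUE, glmQLFTest), separately for each pair of groups, and a gene entered a fit if its FPKM reached 0.1 in a number of libraries equal to the smaller group's size. A call required a p adjusted by Benjamini-Hochberg over all genes tested below 0.05 and a log2 fold change beyond 1 in either direction. The test was checked on simulated counts with known changes. Alternatives were DESeq2 1.42.0, limma 3.58.1 on log2(FPKM + 1) and log2(FPKM + 0.1), other filters and scalings, all groups in 1 fit and a term for the origin of the line. Further ones were both unassigned libraries placed by genotype field, NAIVE_F placed as WT by its title, glmQLFit with legacy=FALSE (the newer form), a replicate block and each library left out. All 10 genes are named. From each other list, up to 5 genes with the largest change among those called in Apc against WT are named, and others with their values. Every gene called in P-Rspo3 against WT was to be named, and none was in the lists. Krt23, Cd24a, Atoh1, Ascl2, Mmp7 and the blood cell markers named were chosen after their values were seen. The 2 genes Pou2af2 and Pou2af3 were not matched to a count. Another 2 list genes are not reported here by name or value, and the counts and medians of their lists include them.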

Additional observations from a re-analysis of the deposited data

Results flagged for a closer look

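Pou2f3 was at 7.94 CPM in P-Rspo3 15d, far from the 3.56 to 4.09 of the other P-Rspo3 libraries. Alox5 was at 4.86 CPM in the dox-naive WT library, far from the 0.504 to 1.66 of the other WT libraries. These were 2 of 30 groups examined for a library far from the others, and chance alone flags about 1 in 20. Ptgs1 was at 3.74 CPM in the unassigned library LIPO, above the WT range of 1.13 to 3.49.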

How the results depend on the processing

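The log2 fold changes of the genes were recomputed under up to 22 alternatives for each comparison with WT and 19 for Apc against P-Rspo3. Dclk1 and Alox5ap were called lower in Apc against WT in all 22. Of the values in Apc against WT, 178 kept direction and side of the threshold, 16 newly passed and 3 no longer passed, and in P-Rspo3 against WT all 197 were not called. The number of genes called higher in Apc against WT was 1, Ptgs1, in place of 0 in edgeR's newer form, in limma on log2(FPKM + 0.1), with all 3 groups in 1 fit, with NAIVE_F as WT by its title, with the adjusted p alone and with a replicate block. It was 0 to 1 with 1 library left out. The number called lower was 4, and 2 in limma on log2(FPKM + 1), 3 in limma on log2(FPKM + 0.1) and with filterByExpr, and 4 to 5 in the rest. Hpgds passed in 6 alternatives, both forms of DESeq2 among them, and Pou2f3 in 1, with the adjusted p alone. In Apc against P-Rspo3, limma on log2(FPKM + 1) called 0 higher and 0 lower, and on log2(FPKM + 0.1) it called 1 lower. On these scales Trpm5 turned to 0.07 and 0.13 in Apc against P-Rspo3 and Alox5, not called, to 0.04 and 0.17, while Alox5 ranged from -0.28 to 0.26 with 1 library left out, at 0.19 without Apc library 1 and 0.26 without P-Rspo3 library F. The FPKM scales moved the median of all genes by 0.167 and 0.277 in Apc against WT and by 0.16 and 0.254 in Apc against P-Rspo3. The cause was not tested. Shared replicate numbers of WT and Apc were taken as a block only here, because the 4 same-numbered pairs had correlations of 0.021 to 0.201 (other pairs -0.173 to 0.144) and 2 of the 4 WT libraries correlated best with their own number. With the replicate block 1979 genes were called higher and Ptgs1 was at 1.32. Over all genes, P-Rspo3 against WT called 55 higher and 173 lower in DESeq2 without a prior, 4 and 32 with one, 14 and 61 with all 3 groups in 1 fit, 166 and 100 without the dox-naive library, and 0 to 3 higher and 0 to 11 lower in the rest. With a term for the origin of the line, which rests on the dox-naive library, Alox5 was at -2.27 and Alox5ap at -1.76 in P-Rspo3 against WT, and neither was called. With the adjusted p alone, 5028 genes were higher and 4864 lower in Apc against WT, and 4719 and 4557 against P-Rspo3, where limma on log2(FPKM + 1) called 1430 and 1124, and 1132 lower against WT. That scale called 8 of the 44 genes of the 5 lists lower against WT and 4 of 40 against P-Rspo3, in place of 24 and 20. Among the 10 genes, Il25 and the fold changes of Gfi1b and of Alox5ap in Apc are limited at this depth by counts of at most 4 reads.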

Other observations

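In the 2 unassigned libraries, the tuft cell genes were read as single values. LIPO, labelled Dox naive in its genotype field, had no read of Rspo3 and NAIVE_F, labelled as P-Rspo3, had 729. Dclk1 was at 14.1 CPM in LIPO and 9.19 in NAIVE_F, and Trpm5 at 13.8 and 8.58. Alox5 was at 4.64 in LIPO, near the 4.86 of the dox-naive WT library, and at 1.14 in NAIVE_F. Hpgds was at 3.17 in NAIVE_F, below P-Rspo3 15d, 4d and F. Over the 9 genes, the median log2 difference from the WT mean was 0.45 in LIPO and -0.15 in NAIVE_F.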
